A study of Rattus norvegicus with 9 samples.

Results

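The 10 genes described here encode transcription factors that specify and maintain the heart muscle lineage: the GATA factors Gata4 and Gata6, the homeobox factor Nkx2-5, the MADS-box factors Mef2a, Mef2c and Mef2d, the T-box factors Tbx5 and Tbx20, and the basic helix-loop-helix factors Hand2 and Hey2. They were taken from the table by gene name, in a choice made with earlier results of these data known, and are 10 of the 35843 genes in the deposited table, each with 1 row. RNA of the left ventricle was sequenced at day 28 in 3 groups of 3 rats, which were adult male Sprague-Dawley rats. In group MI the left anterior descending coronary artery had been ligated and saline was given by daily gavage; group MI + DAPA (1st d), labelled DAP(1st) and called MI + DAPA here, had the same ligation and received dapagliflozin (DAPA, an inhibitor of the sodium-glucose cotransporter SGLT2) at 1 mg/kg daily from the first day. Group Sham was operated on in the same way but without ligation, and received saline by gavage. The study's methods state that molecular work mainly used the border of the infarct with the scar cut away, and that Sham tissue came from the matching part of the heart, while for the sequenced ligated rats it speaks of infarct myocardium. How much border tissue each sequenced sample held is not given.

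In the developing heart these factors bind one another and the enhancers of contractile and natriuretic peptide genes: GATA4, NKX2-5 and TBX5 act as a cooperating core, MEF2 proteins add the muscle program, HAND2 is needed for the right ventricle, and HEY2 is a Notch-regulated repressor that keeps atrial genes out of the ventricle. In the adult heart they remain active in cardiomyocytes, and GATA4 and MEF2 proteins are known for driving hypertrophic gene expression under load. Several are also made outside the muscle cell, with Gata4, Gata6, Tbx20 and Hand2 in cardiac fibroblasts, Mef2c in endothelium and Hey2 in arterial endothelium. In whole tissue, fewer cells of a type and less RNA per cell cannot be told apart.

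The values are FPKM, read counts divided by exon length and by a library-size denominator chosen by the authors. Whole reads could be recovered from the steps of the values, and gave 13597239 to 17210909 reads per rat. Reads outside the mitochondrial genome were 5702454 to 6570698 per rat in group Sham and 11440726 to 13171891 in the ligated rats, so the factors were measured with fewer reads in group Sham. The mitochondrial genome took 61.1% to 66.9% of reads in group Sham, 7.07% to 19.1% in group MI and 17.5% to 32.0% in group MI + DAPA. When libraries were rescaled to the sum of all genes instead, the median log2 fold change of all genes became 1.31 in MI vs. Sham, 0.99 in MI + DAPA vs. Sham and -0.35 in MI + DAPA vs. MI, moves of 1.32, 0.99 and -0.33. Fold changes below are on the deposited scale, and values on the rescaled scale are given relative to that median.

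In group Sham the order of the mean levels ran from Mef2c at 14.9 FPKM to Tbx20 at 0.487 FPKM, and in 9 of 9 neighbouring pairs of that order the rats overlapped. In group MI the order was led by Nkx2-5 at 23.3 ± 15.5 FPKM (SD, n = 3) and Gata4 at 15.5 ± 4.55 FPKM (SD, n = 3), with 7 of 9 neighbouring pairs overlapping. In group MI + DAPA Nkx2-5, at 42.2 ± 11.2 FPKM (SD, n = 3), stood above the next gene, Gata4, at 19.5 ± 3.67 FPKM (SD, n = 3), without overlap between the rats. The least abundant member in both ligated groups was Tbx5, a factor of the left ventricle and conduction system, with 0.971 ± 0.474 FPKM after infarction alone and 1.304 ± 0.484 FPKM with DAPA (SD, n = 3). The exonic length behind these values, as recovered from the steps, was 645 bases for Hand2 and 6451 bases for Mef2c, the shortest and the longest of the 10, so that the lowest Hand2 value in group Sham stood for 5 reads and the lowest Mef2c value for 990.

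**Figure D1:**
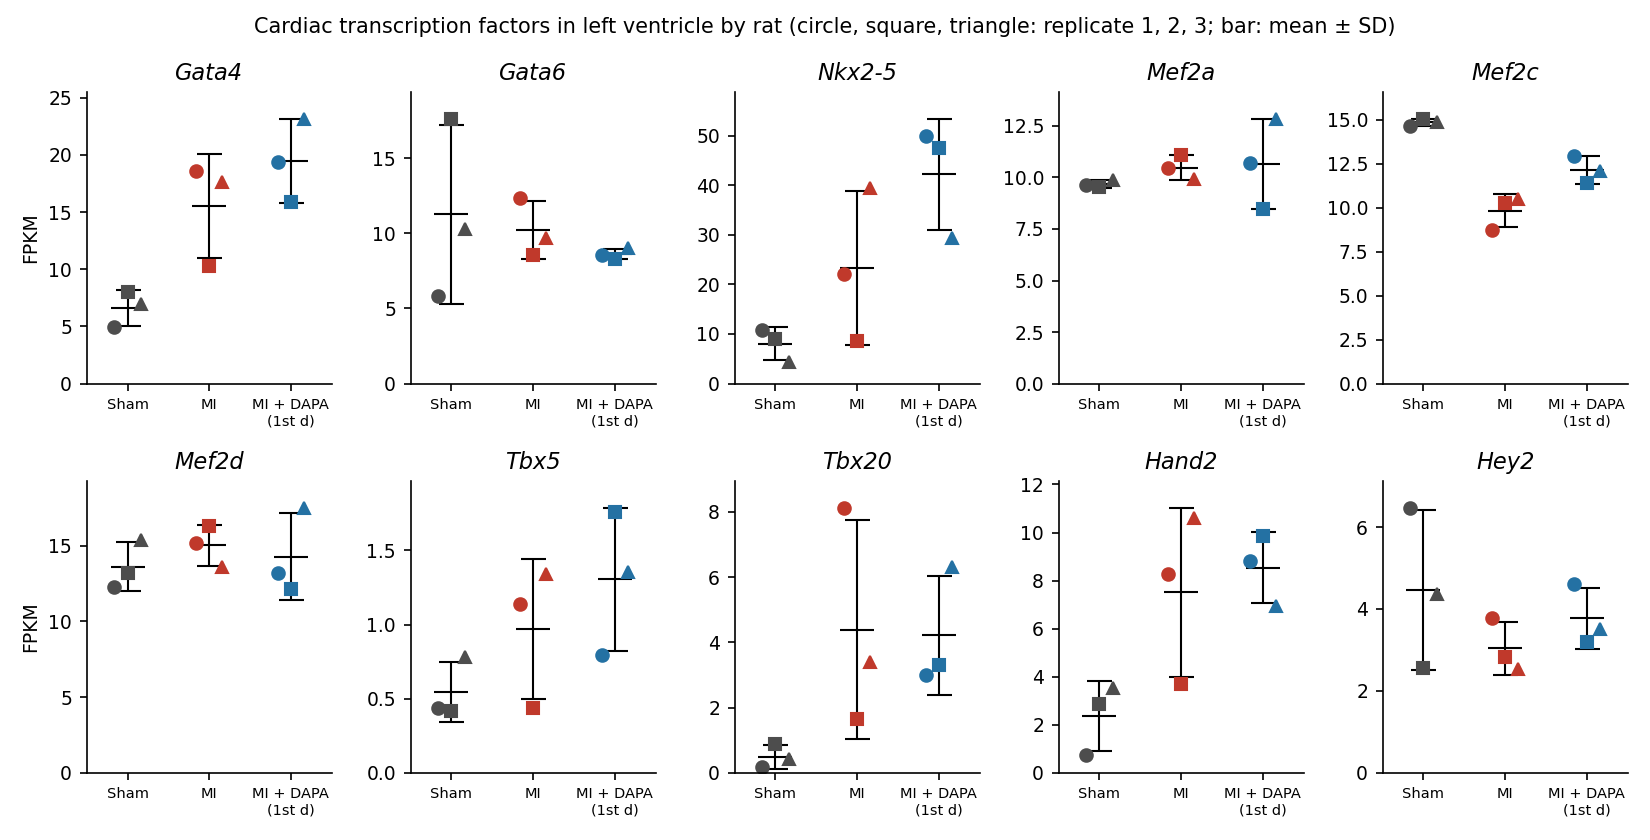
FPKM (y axis) of each of the 10 factors in the 3 rats of group Sham (grey), group MI (red) and group MI + DAPA (blue), with circle, square and triangle for replicates 1, 2 and 3 and bars for the mean ± SD. Gata4, Tbx20 and Hand2 have every ligated rat above every Sham rat, Mef2c has every ligated rat below, and replicate 2 of group MI is the lowest MI rat for 6 of the 10 genes.

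The promoter windows of Nkx2-5, Tbx20 and Hand2 are shown because these were, with Gata4, the members that differed between group MI + DAPA and group Sham. RefSeq windows on build GRCr8, from 250 bases before to 50 bases after the gene's start, were found for 8 of the 10 members; Gata4 and Mef2c had no entry. The window of Nkx2-5 is chr10:16848350-16848649 on the plus strand, that of Tbx20 is chr8:31533960-31534259 on the minus strand and that of Hand2 is chr16:37931439-37931738 on the minus strand. Each is written 5′ to 3′ along the gene's strand, with capitals for a GC box (GGGCGG on either strand) or a GATA core (AGATAA on either strand).
Nkx2-5: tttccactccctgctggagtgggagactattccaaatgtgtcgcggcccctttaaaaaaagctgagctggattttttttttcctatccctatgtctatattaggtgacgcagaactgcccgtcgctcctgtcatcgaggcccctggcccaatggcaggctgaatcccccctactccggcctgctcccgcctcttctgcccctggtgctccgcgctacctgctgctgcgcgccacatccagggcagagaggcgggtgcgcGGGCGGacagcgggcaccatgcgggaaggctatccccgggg
Tbx20: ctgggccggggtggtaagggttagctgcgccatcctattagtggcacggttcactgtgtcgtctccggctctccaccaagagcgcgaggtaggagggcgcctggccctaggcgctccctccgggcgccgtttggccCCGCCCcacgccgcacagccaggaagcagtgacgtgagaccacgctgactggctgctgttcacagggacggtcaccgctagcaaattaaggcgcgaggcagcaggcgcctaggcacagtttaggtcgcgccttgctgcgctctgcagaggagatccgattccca
Hand2: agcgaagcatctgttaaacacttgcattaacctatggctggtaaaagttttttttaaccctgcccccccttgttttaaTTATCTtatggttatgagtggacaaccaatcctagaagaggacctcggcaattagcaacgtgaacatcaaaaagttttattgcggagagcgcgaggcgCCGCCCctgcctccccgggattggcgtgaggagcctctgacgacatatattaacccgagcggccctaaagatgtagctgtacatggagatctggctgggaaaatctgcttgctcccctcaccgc
A GC box was present in 7 of the 8 members' windows and in 33.1% of the 33469 rat promoter windows of the same length. The GATA core occurred in the window of Hand2 alone among the 8, and in 11.6% of all windows. The MEF2 consensus occurred in the window of Mef2a only, against 3.29% of all windows. An NKX2 core (TNAAGTG) and a T-box half-site (AGGTGTNA) matched none of the 8 windows on either strand, and 11.5% and 3.04% of all windows, and TATAAA matched none of the 8 and 14.2% of all. An E-box (CANNTG), which can overlap other motifs, occurred in 3 of the 8 and in 72.1% of all windows. The GC content was 61.3% for Nkx2-5, 65.3% for Tbx20 and 49.3% for Hand2, against a median of 51.7% over all windows. These matches describe the letters of the windows and do not show that a factor binds there.

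The first comparison asked how the factors stood in infarcted ventricle against group Sham. Gata4 rose and Mef2c fell on the deposited scale, which is used throughout this paragraph. Tbx20 passed the test only with the filter on low values (limma adjusted p = 0.0237 with it and 0.0582 without). Hand2 and Nkx2-5 had higher means that did not pass the test, and Mef2a, Mef2d, Gata6 and Hey2 did not pass it either. Of the 9 members tested, 3 were called by limma at a Benjamini-Hochberg adjusted p under 0.05, against 39.0% of the 13485 genes tested, 2 of them higher (19.5% of all genes) and 1 lower (19.5% of all genes). The share of members called was thus near that of all genes. Tbx20, 1 of the 2 higher, had entered the test through the ligated rats alone, and with no filter the count was 2. It was 0 without MI replicate 1, and 1 without Sham replicate 3 or without MI replicate 3. Members whose rats did not overlap between the groups numbered 5 of 9, against 54.6% of all genes tested. The exact permutation test with 3 rats against 3 cannot go below a two-sided p of 0.1.

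Gata4, a zinc finger factor needed for heart tube formation and for the hypertrophic response, was at 4.93, 8.04 and 6.94 FPKM in the Sham rats and at 18.6, 10.3 and 17.7 FPKM in the MI rats. All MI rats were above all Sham rats, and the mean was 2.34-fold that of group Sham. The log2 fold change was 1.09 ± 0.27 (SE) with a limma adjusted p of 0.0175, and 1.19 above the median of all genes after rescaling to the sum of all genes. The adjusted p was 0.0604 without MI replicate 1 and 0.0548 without MI replicate 3.

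Tbx20, a T-box factor that keeps adult cardiomyocytes contractile and interacts with GATA4 and NKX2-5, was at 0.172, 0.879 and 0.410 FPKM in group Sham, or 4, 20 and 8 reads. It was at 8.12, 1.63 and 3.39 FPKM in group MI, so every MI rat was above every Sham rat while the MI rats themselves differed widely. The log2 fold change of FPKM + 1 was 1.70 ± 0.45 (SE, limma adjusted p = 0.0237), a scale that understates the change of such low values. Tbx20 passed the filter on low values only through the ligated rats, so that its being called is partly set by the filter; with no filter, over 22573 genes, the adjusted p was 0.0582. It was 0.0673 without Sham replicate 1 and 0.0671 without Sham replicate 3.

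Mef2c, the MEF2 factor that is most tied to early heart formation, was at 14.7, 15.1 and 14.9 FPKM in the Sham rats and at 8.74, 10.3 and 10.5 FPKM in the MI rats. It was the only member with all MI rats below all Sham rats, and the Sham rats spanned a narrow range. On the log2 scale it fell by 0.55 ± 0.14 (SE, limma adjusted p = 0.0184). With rescaling to the sum of all genes the value turned to 0.89, which was still below the median shift, by -0.42 relative to it. Mef2c was called higher there (limma adjusted p = 0.00211), as were 10651 of 13485 genes. On the deposited scale the adjusted p was 0.0518 without Sham replicate 3 and 0.0796 without MI replicate 1.

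Hand2, a helix-loop-helix factor of the ventricles and of the outflow tract, was at 0.741, 2.87 and 3.52 FPKM in group Sham and at 8.26, 3.69 and 10.6 FPKM in group MI. The groups did not overlap, yet the lowest MI rat lay close to the highest Sham rat. The log2 difference was 1.35 ± 0.46 (SE) and the limma adjusted p was 0.0528. With all 9 rats in 1 fit the adjusted p was 0.0276, and without MI replicate 2 it was 0.0266.

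Nkx2-5, the homeobox factor that marks committed heart muscle cells, was at 10.9, 8.91 and 4.39 FPKM in group Sham and at 22.0, 8.51 and 39.5 FPKM in group MI. MI replicate 2 lay inside the Sham range and the other MI rats lay above it. The log2 difference was 1.27 ± 0.54 (SE, limma adjusted p = 0.102). Without MI replicate 2 it was 1.83 with an adjusted p of 0.0181, so this rat decided the call.

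The other members differed by less. Mef2a and Mef2d gave log2 differences of 0.10 and 0.14 with 95% intervals from -0.21 to 0.41 and from -0.22 to 0.49. Mef2a was at 9.54 to 9.89 FPKM in group Sham and at 9.90 to 11.1 FPKM in group MI, a separation between the groups that was small beside the fitted error. Gata6, the second GATA factor of the heart, was at 5.84, 17.6 and 10.3 FPKM in group Sham, which enclosed the whole MI range of 8.58 to 12.4 FPKM, and its difference of -0.03 turned to 0.34 without Sham replicate 2. Hey2 was at 2.55 to 6.47 FPKM in group Sham and 2.54 to 3.78 FPKM in group MI, a log2 difference of -0.38 (95% interval -1.07 to 0.31). Rescaled to the sum of all genes, the Gata6 and Hey2 values turned to 1.40 and 0.85, which were 0.09 and -0.47 relative to the median. Both were called higher there (limma adjusted p = 0.00427 and 0.0312), as were 10651 of 13485 genes. Tbx5 was under the filter with 15 to 24 reads in the Sham rats and was not tested against them.

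**Figure D2:**
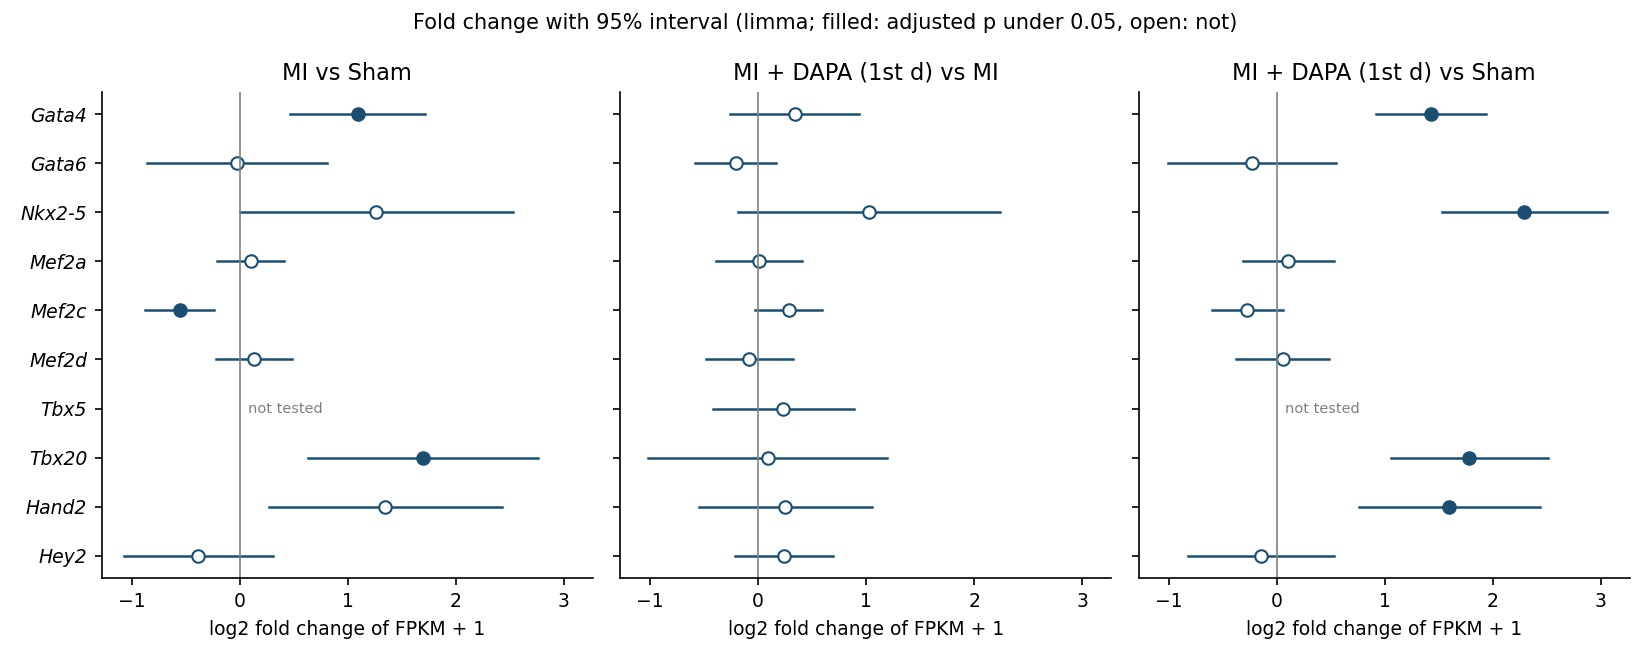
Log2 fold change of FPKM + 1 (x axis) with its 95% interval for each factor (y axis) in the 3 comparisons, from limma, filled where the adjusted p was under 0.05. In MI vs. Sham the points of Gata4 and Tbx20 are filled above 0 and that of Mef2c below (it turns to 0.89 on the sum of all genes), and the interval of Hand2 lies above 0 with an adjusted p of 0.0528. In MI + DAPA vs. MI every interval includes 0, and in MI + DAPA vs. Sham those of Nkx2-5, Tbx20, Hand2 and Gata4 lie above 0.

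The next comparison asked whether DAPA moved the factors in infarcted ventricle. No member passed the test: 0 of 10 were called at an adjusted p under 0.05 by limma, where 0.0% of the 13251 genes tested were, and 0 had an unadjusted p under 0.05, against 8.49% of all genes. Of the 10 members, 1 (Mef2c) had no overlap between the groups, against 13.8% of all genes. Both groups had the ligation, and MI replicate 2 was the lowest MI rat for Nkx2-5, Gata4, Tbx20, Hand2, Tbx5 and Gata6.

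Nkx2-5 was at 49.9, 47.4 and 29.4 FPKM after DAPA, where replicates 1 and 2 were above all MI rats and replicate 3 lay inside the MI range. The log2 difference from group MI was 1.03 ± 0.51 (SE), with a 95% interval from -0.19 to 2.24 and an unadjusted limma p of 0.0858 (adjusted p = 0.558). With single rats left out it ranged from 0.47 to 1.51. Mef2c was at 13.0, 11.4 and 12.1 FPKM with DAPA, above all MI rats and below all Sham rats. The difference was 0.28 ± 0.13 (SE) with an interval from -0.03 to 0.59 (limma adjusted p = 0.558), and it turned to -0.06 on the scale of all genes, or 0.29 relative to the median of that scale.

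For Gata4, at 19.4, 15.8 and 23.2 FPKM with DAPA, the difference from group MI was 0.34 with an interval from -0.26 to 0.94. The rats of both groups overlapped. Hand2 was at 8.83, 9.85 and 6.94 FPKM, a difference of 0.25 (95% interval -0.55 to 1.05), and Tbx20 was at 3.01, 3.31 and 6.31 FPKM, a difference of 0.09 (95% interval -1.02 to 1.19). Tbx20 and Hand2 turned to -0.33 and -0.13 without MI replicate 2, so that the sign of their difference rested on that rat. Tbx5, at 0.796, 1.76 and 1.36 FPKM with DAPA against 1.14, 0.436 and 1.34 FPKM in group MI, differed by 0.23 (95% interval -0.42 to 0.89). The intervals of Mef2a, Mef2d, Gata6 and Hey2 lay within 0.69 of 0, while those of Nkx2-5, Tbx20 and Hand2 left room for a doubling.

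The last comparison set DAPA-treated infarcted ventricle against group Sham. Of the 9 members tested, 4 were called, all higher: Nkx2-5, Gata4, Hand2 and Tbx20, the last having entered the test through the treated rats alone. The background was 28.6% of the 13359 genes tested, and 14.5% were called higher. Without DAPA replicate 1 the count was 2. Of the 9 members, 5 did not overlap between the groups, where 46.5% of all genes did not. This comparison shares its Sham rats with the first and its treated rats with the second, so the results are not independent of each other.

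Nkx2-5 was 5.24-fold higher by the ratio of the means, with a log2 fold change of 2.29 ± 0.33 (SE, limma adjusted p = 0.00385), and the lowest DAPA-treated rat, at 29.4 FPKM, stood well above the highest Sham rat at 10.9 FPKM. Gata4 was 2.94-fold higher with a log2 fold change of 1.43 ± 0.22 (SE, limma adjusted p = 0.00472). Hand2 rose by 1.60 ± 0.36 (SE, limma adjusted p = 0.0162), a call that was lost without DAPA replicate 1, with an adjusted p of 0.0574. Tbx20 rose by 1.78 ± 0.31 (SE, limma adjusted p = 0.00717), with all Sham rats under the filter. After rescaling to the sum of all genes these members stood 2.38, 1.504, 1.51 and 1.43 above the median. Mef2c, lower in all treated rats than in all Sham rats, did not pass the test with -0.27 ± 0.14 (SE, limma adjusted p = 0.188). It turned to 0.83 on the scale of all genes, or -0.16 relative to the median. It was called higher on that scale (limma adjusted p = 0.0168), as were 8431 of 13359 genes. Mef2a, Mef2d, Gata6 and Hey2 had log2 differences of 0.11, 0.05, -0.23 and -0.14, with adjusted limma p-values of at least 0.636. Tbx5, at 0.796 to 1.76 FPKM against 0.417 to 0.778 FPKM, did not overlap but was under the filter.

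**Figure D3:**
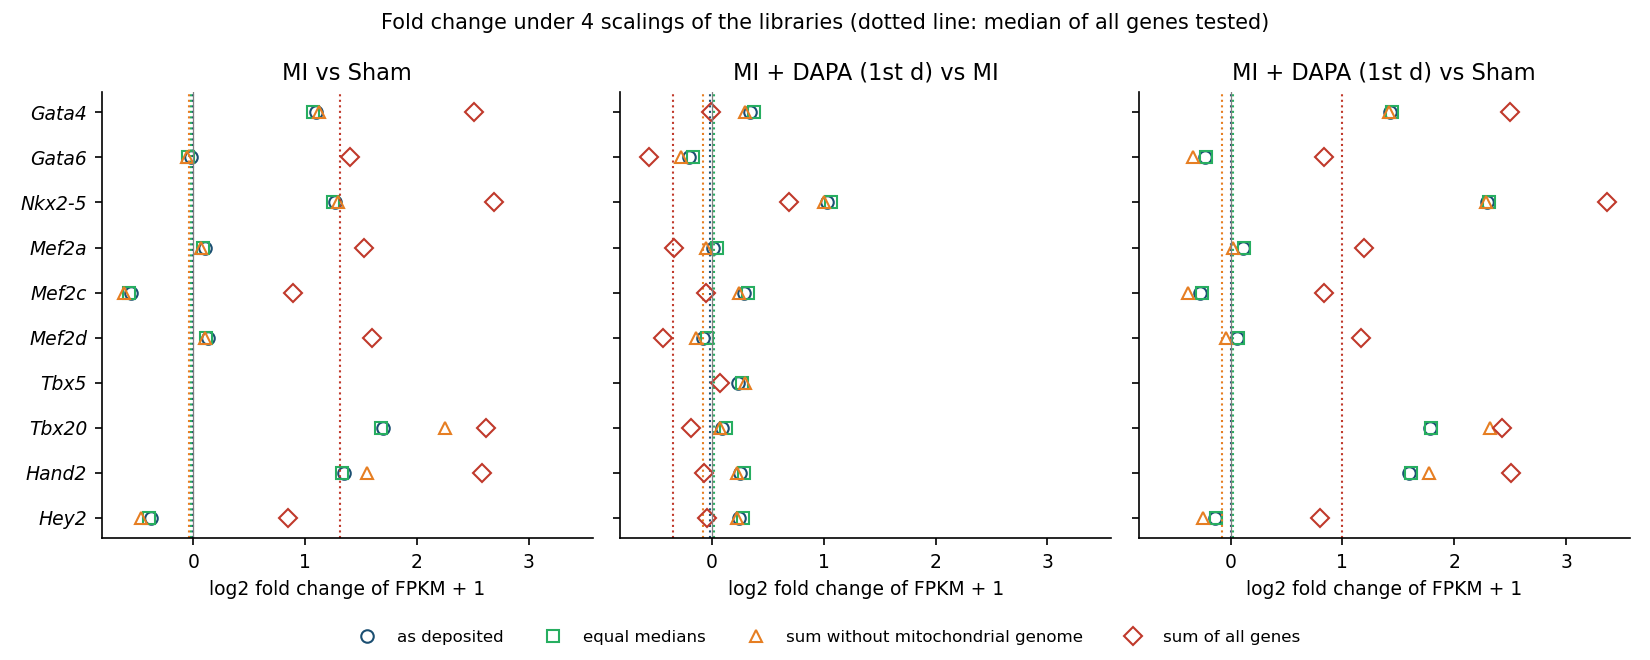
Log2 fold change of FPKM + 1 (x axis) of each factor (y axis) in the 3 comparisons under 4 scalings of the libraries, with a dotted line for the median of all genes tested under each. In MI vs. Sham the sum without the mitochondrial genome gives Tbx20 2.25 against 1.70 as deposited, and Hand2 1.55 against 1.35. That scaling also raises all values before 1 is added, so the added 1 weighs less on low values. The median of all genes is only -0.037 under it. The sum of all genes moves every factor along with the median of all genes, which is 1.31 in MI vs. Sham.

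Shares within a family are free of the scaling of the libraries. Within the MEF2 family, which binds a common A and T rich site, Mef2c made up 40.1%, 39.9% and 37.0% of the summed FPKM of Mef2a, Mef2c and Mef2d in the Sham rats. It made up 25.5%, 27.3% and 30.8% in the MI rats and 35.2%, 35.6% and 28.5% in the DAPA-treated rats. The MI and Sham rats did not overlap, a difference of -11.2 percentage points (exact permutation p = 0.1, two-sided, the smallest possible), and DAPA-treated replicate 3 fell within the MI range (difference 5.26 percentage points, exact permutation p = 0.2). The shares make up a fixed whole, so a lower Mef2c share raises those of Mef2a and Mef2d together. That of Mef2d went from 35.6% ± 2.502 in group Sham to 42.5% ± 2.16 in group MI (SD, n = 3). That of Mef2a went from 25.4% ± 0.857 to 29.7% ± 0.658 (SD, n = 3), each without overlap (exact permutation p = 0.1). The levels of Mef2d and Mef2a themselves differed by 0.14 and 0.10 on the log2 scale (limma adjusted p = 0.510 and 0.567).

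The log2 ratio of Gata4 to Gata6, taken on FPKM + 1 and so only nearly free of the scaling, was -0.21, -1.04 and -0.51 in the Sham rats, 0.55, 0.24 and 0.80 in the MI rats and 1.09, 0.86 and 1.27 in the DAPA-treated rats. No pair of groups overlapped in this ratio, in the order Sham, MI, MI + DAPA, with an exact two-sided permutation p of 0.1 in each of the 3 comparisons. The difference was 1.12 in MI vs. Sham and 0.54 in MI + DAPA vs. MI, where MI replicate 3 and DAPA-treated replicate 2 lay next to each other. The log2 ratio of Tbx5 to Tbx20 went from 0.07 ± 0.42 in group Sham to -1.29 ± 0.69 in the MI rats and -1.14 ± 0.49 in the DAPA-treated rats (SD, n = 3). It separated both ligated groups from group Sham, with an exact permutation p of 0.1 each and differences of -1.37 and -1.22 (-2.18 and -1.88 with a pseudocount of 0.1, Tbx20 having 4 to 20 reads in the Sham rats), but not from each other (exact permutation p = 0.8). In all, 15 such differences were computed (5 balances in 3 comparisons), and none can pass a correction with 3 rats a group.

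**Figure D4:**
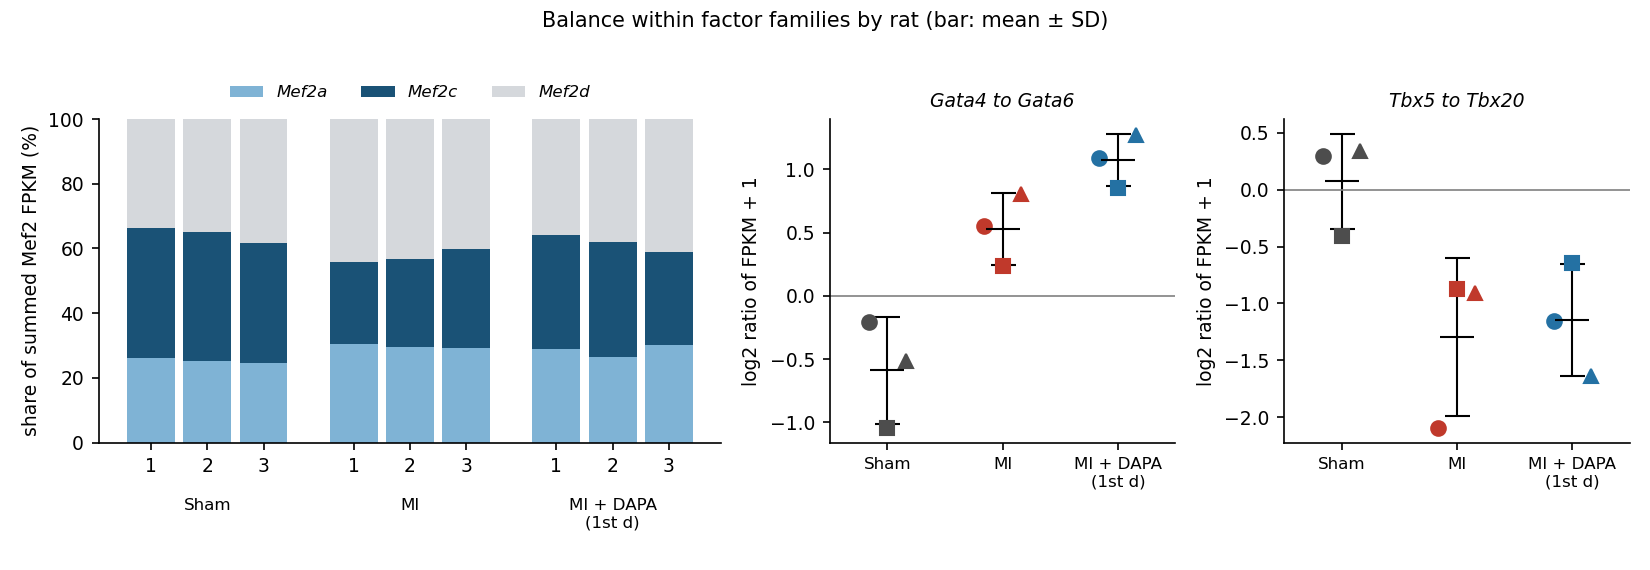
Left, the share (%) of Mef2a, Mef2c and Mef2d in their summed FPKM in each rat. Middle and right, the log2 ratio of Gata4 to Gata6 and of Tbx5 to Tbx20 (FPKM + 1) by rat, with the mean ± SD as bars; the Gata4 ratio is below 0 in the 3 Sham rats and above 0 in the 6 ligated rats.

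The factors were also read against cardiomyocyte markers. RNA of heart muscle was present in every rat: 16 of the 18 markers listed were found in the table, none was at 0 in any rat, and their summed FPKM was 9762 to 13974 in group Sham, 3159 to 16271 in group MI and 12832 to 26895 in group MI + DAPA, with MI replicate 2 the lowest. These values do not tell how much of a sample was muscle. Of the 16, 3 were lower in MI vs. Sham (limma adjusted p), near the 19.5% of all genes called lower, and 0 were lower on the sum of all genes, where their median of 1.19 lay below the 1.31 of all genes. The 3 were Myh6, the fast myosin heavy chain, by -2.43, Tnni3, cardiac troponin I, by -2.32, and Ldb3, a Z-disc protein, by -1.77. In MI + DAPA vs. MI 0 of the 16 were called and 16 had higher means, with a median log2 difference of 1.302 against -0.02 for all genes tested. The mean difference over the 16 was 1.26 with all rats and 0.68 without MI replicate 2. In MI + DAPA vs. Sham 8 of the 16 were called higher and 0 lower, where 14.5% of all genes were called higher. The median log2 difference there was 1.06 against 0.01 for all genes tested.

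Each factor was therefore also expressed as its log2 value minus the mean log2 of these markers in the same rat. Nkx2-5 then gave -3.14, -3.13 and -3.25 in group MI, and its SD there went from 1.05 to 0.07, while in group Sham it went from 0.60 to 0.85. In the DAPA-treated rats it gave -3.28, -3.62 and -3.33, and in the Sham rats -4.26, -4.88 and -5.93. Relative to the markers Nkx2-5 was thus 1.85 higher after infarction than in group Sham, and with DAPA it differed from group MI by -0.24 (-0.13 without DAPA replicate 2), each without overlap (exact permutation p = 0.1, two-sided). Nkx2-5 and Hand2 were the 2 of 10 members whose spread in group MI narrowed by this subtraction, the SD of Hand2 going from 0.68 to 0.46. Gata4, Tbx20 and Hand2 stayed apart between group MI and group Sham, with differences of 1.67, 2.28 and 1.93 (exact permutation p = 0.1 each), whereas Mef2c did not (difference 0.03, exact permutation p = 0.9). The mean of the markers was lower in group MI than in group Sham. The subtraction therefore raises the MI vs. Sham difference of every member by the same amount, and all 10 were positive. A larger difference after it thus says nothing of a single member. Between the DAPA-treated and the MI rats the subtraction lowers the difference of every member by the same 1.26, so that a negative sign says nothing of a single member. Nkx2-5 and Hand2 (difference -1.01, exact permutation p = 0.1) had no overlap there. How much of each factor's value came from the share of muscle in the sample was not tested.

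**Figure D5:**
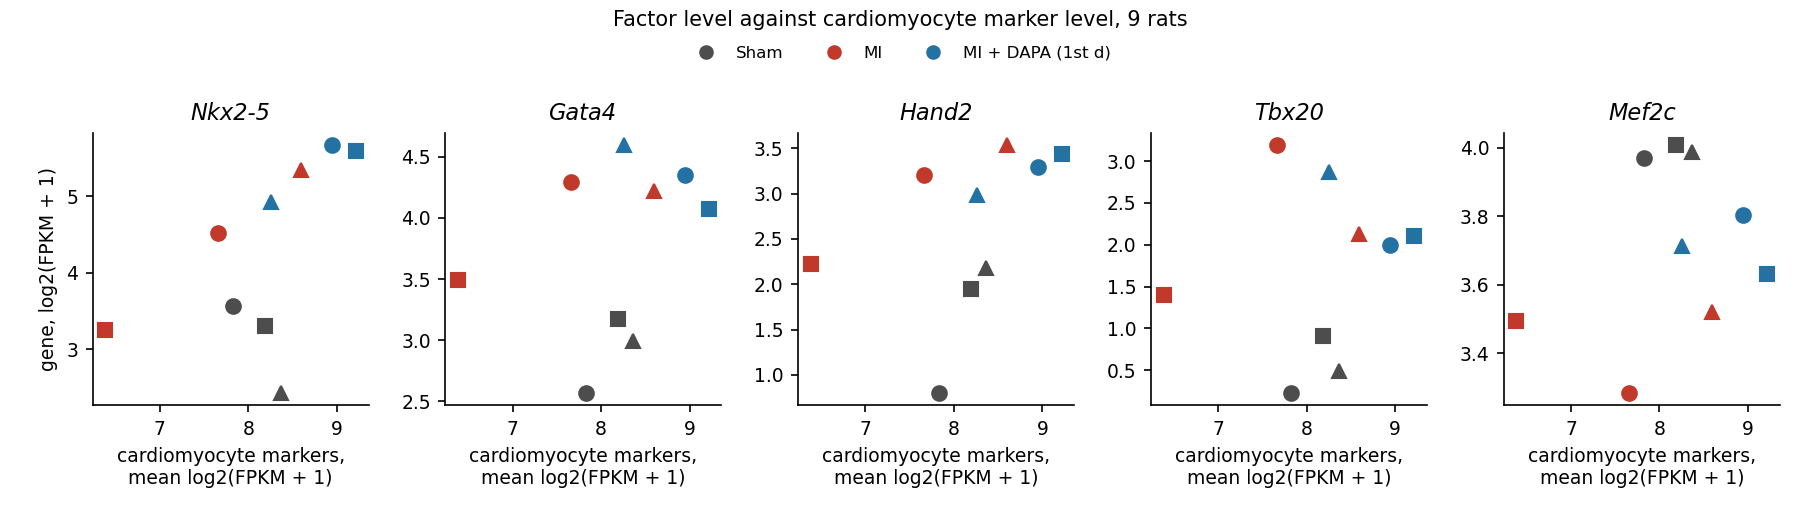
Log2(FPKM + 1) of 5 factors (y axis) against the mean log2(FPKM + 1) of 16 cardiomyocyte markers (x axis) in 9 rats, with colours for groups and circle, square and triangle for replicates 1, 2 and 3. For Nkx2-5 the 6 ligated rats rise with the markers, and the Sham rats lie below ligated rats of like marker level, while MI replicate 2 lies at the far left, at 6.38, in every panel.

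Markers of other cells moved with the groups too. Of all genes tested, 19.5% were called higher and 19.5% lower in MI vs. Sham, and 14.5% higher in MI + DAPA vs. Sham. All 10 fibroblast markers were higher in MI vs. Sham (Pdgfra by 2.81, Col1a2 by 4.60 and Col3a1 by 4.53), and their summed FPKM was 448 to 738 in group Sham, 3831 to 7602 in group MI and 2391 to 4132 in group MI + DAPA. With DAPA, Col1a1 and Col3a1 differed from group MI by -1.15 and -1.05 without passing the adjusted test. All 9 macrophage markers were higher in MI vs. Sham, such as C1qb by 3.22 and Csf1r by 2.51, with sums of 126 to 444, 1726 to 3153 and 961 to 1726 FPKM in the groups Sham, MI and MI + DAPA. Of 8 endothelial markers 7 were lower, and 1 on the sum of all genes, where the median of 0.10 stood far below that of all genes, with Egfl7 by -2.55 and Cdh5 by -1.42 among them, with sums of 1002 to 1231, 290.0 to 382 and 408 to 446 FPKM. Of 8 mural markers 3 were higher (Rgs5 by 2.17, Pdgfrb by 1.02, Notch3 by 0.94), and the other 5 had negative values that did not pass the test, from -0.72 for Myh11 to -0.08 for Cnn1, for a list median of -0.22. Of 5 lymphocyte markers tested 3 were higher, led by Cd4 (4.51) and Jchain (6.95), the latter at 2881 FPKM in MI replicate 2. Of 7 epicardial markers 3 were tested: Wt1 was lower by -2.12, and Aldh1a2 and Msln were higher by 1.89 and 3.55, with Msln at 78.8 FPKM in MI replicate 2. Of 5 atrial markers 4 were tested and Nppa was called, by 4.55. With DAPA 3 of 4 were higher than in group Sham (Nppa by 5.81, Myl4 by 3.65 and Myl7 by 2.33), and their sums were 74.1 to 206, 636 to 7233 and 4215 to 8792 FPKM. The part of these cells in the values of Gata4, Tbx20, Hand2, Gata6, Mef2c and Hey2 was not tested.

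Among 33 other cardiac factors and cofactors found in the table, 29 were tested in MI vs. Sham. On the sum of all genes 22 were higher and 0 lower, where 10651 of 13485 genes were higher, with a median of 1.55 against 1.31. On the deposited scale 6 were higher and 5 lower, against 39.0% of all genes called. The 3 with the smallest p were all lower: Tbx3, a repressor of the conduction system, at 7.36 to 10.7 FPKM in group Sham and 1.12 to 2.80 FPKM in group MI (log2 fold change -1.67 ± 0.26 SE, limma adjusted p = 0.00383), Tead4, a partner of YAP (-0.90, adjusted p = 0.00515), and Hdac5, a class II deacetylase that represses MEF2 proteins (-0.96, adjusted p = 0.00585). In MI + DAPA vs. MI 0 of 29 were called. Tbx3 and Tbx2, T-box repressors, had the smallest unadjusted p there, with differences of 0.80 and 0.63 (limma adjusted p = 0.558 each).

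Of 21 textbook targets of the factors, 5 were higher and 3 lower in MI vs. Sham, or 8 of 21 against 39.0% of all genes. On the sum of all genes 16 were higher and 0 lower, where 10651 of 13485 genes were higher. On the deposited scale the median log2 fold change was -0.22 against -0.01 for all genes. Slc8a1, the sodium-calcium exchanger, rose by 1.45 ± 0.20 (SE, limma adjusted p = 0.0025) and Nppa, atrial natriuretic peptide and a target of GATA4 and NKX2-5, by 4.55 ± 0.87 (SE, limma adjusted p = 0.0074). Nppa was at 3741, 626 and 7169 FPKM in the MI rats, an order of height shared by Nkx2-5 and by the summed cardiomyocyte markers. In MI + DAPA vs. MI 0 of 21 targets were called, 20 had higher means, and the median was 1.12 against -0.02 for all genes. Their mean difference was 1.01 with all rats and 0.52 without MI replicate 2. Gja5, the conduction connexin, differed by 0.66 and Myl2, the ventricular light chain, by 1.59 (limma adjusted p = 0.558 each). Against group Sham, 11 of 21 targets were higher with DAPA and 0 lower, where 14.5% of all genes were higher, with a median of 0.95. Myh6, Myl2, Tnni3, Tnnt2, Tnnc1, Actc1, Ryr2, Ckm and Mb among these targets are also on the list of cardiomyocyte markers.

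The genes whose values over the 9 rats were closest to those of a member were sought among 12562 genes tested in all 3 comparisons, by the root mean square difference of centred log2 values. For Gata4 they were Gpr37 and Adcy2, each at 0.20, where Gata4 itself had an SD of 0.67. For Mef2c, with an SD of only 0.24, they were Tdrd3 at 0.08 and Rp9 at 0.09. For Hand2 (SD 0.85) they were Mrpl49 at 0.27 and Ptgfr at 0.32. For Tbx20 (SD 0.96) they were Adamts17 and a locus without a gene name, each at 0.29. Adamts17 was at 7.76, 2.10 and 3.29 FPKM in the MI rats against 8.12, 1.63 and 3.39 FPKM for Tbx20.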

How the data were processed

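The authors deposited FPKM values per gene and rat, 1 column for each of 9 rats, made from poly-A selected libraries. The submitters' processing notes name HISAT2 2.0.5, StringTie 1.3.3b, featureCounts 1.5.0-p3 and DESeq2, and the genome build is not given in the sources used here. FPKM are not counts, so limma 3.58.1 in R 4.3.3 was fitted to log2(FPKM + 1) with trended empirical Bayes, separately for each pair of groups and without covariates. Genes with at least 1 FPKM in 3 or more of the fitted rats entered the test, and a gene was called at a Benjamini-Hochberg adjusted p under 0.05 over all genes tested. Whole reads were recovered for 18896 of 18896 genes seen in at least 4 libraries, within 0.000674 of a whole number, and served for depth only. The deposited scale divided by a denominator averaging 0.577 of the recovered reads in Sham rats and 1.24 times them in MI rats. Exact permutation tests, two-sided, were used for balances and marker-relative values. The members and gene lists were chosen with earlier results of these data known. Named genes were all members, up to 3 genes per list with the smallest p in MI vs. Sham, up to 2 in MI + DAPA vs. MI, and the 2 genes nearest in pattern to the 4 members with the smallest p; others are named as whole sets. The test was checked on simulated MI vs. Sham data with known changes. It called 0.5% of 200 genes changed 2-fold and 93.9% of 198 genes changed 4-fold. The simulation gave every gene the same relative spread between rats, apart from counting noise. In group MI the SD of the members ran from 5.71% of the mean (Mef2a) to 76.6% (Tbx20). In the real MI vs. Sham comparison a far larger share of genes, 39.0%, was called. For both reasons these rates need not hold there. A member that did not pass the test may still differ 2-fold. Python 3.11.15, numpy 2.4.6, pandas 2.3.3 and matplotlib 3.10.9 were used. Alternatives were a pseudocount of 0.1, no filter, 3 other scalings, 1 fit of all 9 rats, a replicate block, single rats left out, unadjusted p and the study's thresholds. The labels name no batch. The limma p-values weigh a difference against the spread between these rats. Each title carries a pair of sub-numbers that is not explained, and each title was taken as 1 rat.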

Additional observations from a re-analysis of the deposited data

How the results depend on the processing

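The number of members called in MI vs. Sham was 9 with libraries rescaled to the sum of all genes, where 10989 of 13485 genes were called. It was 5 at an unadjusted p, where 6605 of 13485 genes were under 0.05, and ranged from 0 to 4 with single rats left out. It was 0 without MI replicate 1, and 1 without Sham replicate 3 or MI replicate 3. In MI + DAPA vs. Sham it was 7 on the sum of all genes, where 8696 of 13359 genes were called. On the deposited scale with single rats left out it ranged from 2 (without DAPA replicate 1) to 4. In MI + DAPA vs. MI it was 0 under every alternative run. Without any one rat of a ligated group, Tbx20 failed the filter against group Sham and gave no value, which lowers those counts. Rescaling to the sum of all genes turned the log2 differences of Gata6, Mef2c and Hey2 to 1.40, 0.89 and 0.85 in MI vs. Sham and to 0.84, 0.83 and 0.80 in MI + DAPA vs. Sham. In MI + DAPA vs. MI it turned Gata4 to -0.00813, Mef2a to -0.34, Mef2c to -0.0566, Tbx20 to -0.19, Hand2 to -0.0716 and Hey2 to -0.0478. These follow the shift of the median of all genes. The sum without the mitochondrial genome turned Mef2a to -0.0495 in MI + DAPA vs. MI and Mef2d to -0.0380 in MI + DAPA vs. Sham. With single rats left out, signs changed for Gata6 (-0.39 to 0.34) in MI vs. Sham, for Mef2a (-0.13 to 0.15), Mef2d (-0.23 to 0.0218), Tbx20 (-0.33 to 0.56) and Hand2 (-0.13 to 0.52) in MI + DAPA vs. MI, and for Gata6 (-0.59 to 0.13), Mef2a (-0.0241 to 0.25), Mef2d (-0.0915 to 0.16) and Hey2 (-0.42 to 0.12) in MI + DAPA vs. Sham. None of the differences that changed sign with a rat left out was called on the deposited scale. A pseudocount of 0.1 moved the Tbx5 to Tbx20 balance to -2.18 in MI vs. Sham and -1.88 in MI + DAPA vs. Sham. Relative to the cardiomyocyte markers it moved Tbx20 to 3.44 in MI vs. Sham, and in MI + DAPA vs. Sham it moved Tbx20 to 2.30, Hand2 to 1.35 and Tbx5 to 0.42. These genes have few reads in group Sham. Leaving Myh6 and Myl2 out of the cardiomyocyte list moved no such difference by more than the spread between rats.

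Rats with the same replicate number deviated together by a mean correlation of 0.01 in MI vs. Sham, 0.11 in MI + DAPA vs. Sham and -0.21 in MI + DAPA vs. MI, so the numbers did not pair them. A replicate block left 3, 0 and 4 members called in MI vs. Sham, MI + DAPA vs. MI and MI + DAPA vs. Sham.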

Other observations

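The 6 other cardiac factors and cofactors that were higher in MI vs. Sham were Mrtfa, Hopx, Prox1, Nfatc3, Hdac4 and Yap1, and the 5 that were lower were Tbx3, Zfpm1, Irx4, Tead4 and Hdac5, all named after their values were seen. On the sum of all genes 0 of these factors were called lower, against 338 of 13485 genes, while with equal medians 6 were higher and 5 lower. Hopx, a homeodomain protein that binds SRF, was at a mean of 20.8 FPKM in group Sham, 51.1 FPKM in group MI and 75.9 FPKM in group MI + DAPA (limma adjusted p = 0.0133 in MI vs. Sham and 0.00266 in MI + DAPA vs. Sham). Irx4, a factor of the ventricular program, was at means of 8.17, 2.30 and 5.07 FPKM in the same groups (limma adjusted p = 0.0213 in MI vs. Sham). On the deposited scale the class II deacetylases went opposite ways, with Hdac5 at 54.1 FPKM in group Sham and 27.4 FPKM in group MI, and Hdac4 at 0.666 and 2.56 FPKM. Hdac4, like Tbx20, had a Sham mean under the filter of 1 FPKM. Of the GATA cofactors of the FOG family, Zfpm1 fell by 0.63 (limma adjusted p = 0.0109), and Zfpm2 differed by 0.84 (limma adjusted p = 0.101).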
